A study of Drosophila melanogaster with 2 samples.

Results

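Corto-GFP bound 294 sites that lay outside every protein-coding gene and more than 2000 bp from every protein-coding transcription start site (TSS). They made up 11.1% (95% Wilson interval 9.98 to 12.4) of the 2644 peaks in the optimal set, the list that the authors kept after an irreproducible discovery rate analysis (IDR), which asks how alike the replicates rank a peak. The sites were chosen by position alone. The summit of each dm6 peak was measured against all protein-coding transcripts of Ensembl release 115, and 19253 distinct TSSs were used. Of the other 2350 summits, 623 were as far from a TSS but inside a gene, 571 lay 501 to 2000 bp from a TSS and 1156 lay within 500 bp of one. The distal summits between genes filled a territory of 34.1 Mb, which is every base of the arms that meets the same rule, at 8.61 summits per Mb.

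The peaks came from ChIP-seq on whole embryos of Drosophila melanogaster, 0 to 24 h old and of mixed sex. The transgenic line stably expressed Corto with green fluorescent protein (GFP) fused to its C terminus, and chromatin was precipitated with an antibody against GFP. The 2 libraries are biological replicates of 1 group, so no condition is compared, and a whole embryo holds many cell types at many stages. The files hold peak positions and signals but no read counts, so depth is unknown.

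Corto is a chromodomain protein of the Enhancers of Trithorax and Polycomb, genes whose mutations affect both the activators and the repressors that hold developmental gene expression in place. Stretches between genes carry enhancers, silencers such as Polycomb response elements, insulators, and genes for RNAs that are not translated. Enhancers of developmental regulators often lie many kilobases from the promoter they act on and can skip the nearest gene, so the flanking genes named below give the position of a site and not its target.

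Strong sites, one of them with no gene near it, the site beside the bantam miRNA gene and a site beside a tRNA gene are shown first, because they span the settings in which these summits occur. Each line covers the summit with 100 bp on either side, read from the NCBI genome of the dm6 assembly, and capitals mark runs of 8 or more consecutive A or T.
Between Cyt-c1L and eEF1gamma, chr3R:29214339-29214539, plus strand: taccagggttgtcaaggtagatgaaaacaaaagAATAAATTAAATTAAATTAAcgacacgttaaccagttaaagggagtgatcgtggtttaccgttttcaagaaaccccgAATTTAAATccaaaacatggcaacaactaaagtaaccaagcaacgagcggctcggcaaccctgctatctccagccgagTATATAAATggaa
Between CG4004 and Paics, inside lncRNA:CR44619, chrX:12752289-12752489, plus strand: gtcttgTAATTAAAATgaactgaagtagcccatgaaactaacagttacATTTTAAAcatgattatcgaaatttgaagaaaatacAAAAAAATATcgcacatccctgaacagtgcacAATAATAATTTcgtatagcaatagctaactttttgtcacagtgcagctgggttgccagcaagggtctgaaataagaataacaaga
Between COX7AL2 and CG31668, chr2L:2202330-2202530, plus strand: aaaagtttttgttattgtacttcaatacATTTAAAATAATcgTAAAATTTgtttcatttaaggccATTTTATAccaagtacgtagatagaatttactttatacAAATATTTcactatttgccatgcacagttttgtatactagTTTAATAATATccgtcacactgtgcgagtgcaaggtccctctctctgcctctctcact
Between CG43245 and CG12523, no annotated gene within 2000 bp, chr3L:10776493-10776693, plus strand: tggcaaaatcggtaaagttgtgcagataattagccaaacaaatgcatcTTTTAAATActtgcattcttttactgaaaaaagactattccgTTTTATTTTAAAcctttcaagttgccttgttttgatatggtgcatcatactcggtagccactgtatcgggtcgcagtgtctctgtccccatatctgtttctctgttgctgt
Beside the bantam gene, chr3L:640727-640927, plus strand: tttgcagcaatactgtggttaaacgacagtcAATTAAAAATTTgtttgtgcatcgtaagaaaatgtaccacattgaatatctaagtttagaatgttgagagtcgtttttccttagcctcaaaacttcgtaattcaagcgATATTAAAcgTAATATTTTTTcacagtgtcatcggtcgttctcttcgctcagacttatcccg
Between Or85e and Cyp313b1, beside tRNA:Tyr-GTA-1-4, chr3R:8642432-8642632, plus strand: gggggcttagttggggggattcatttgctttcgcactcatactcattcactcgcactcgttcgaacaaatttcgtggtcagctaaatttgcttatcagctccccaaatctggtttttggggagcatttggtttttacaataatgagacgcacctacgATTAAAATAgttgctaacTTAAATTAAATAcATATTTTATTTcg
The summit is the middle base of each line. In the first 3 sequences and at bantam, A/T runs lie on both sides of the middle base, and in the fourth a run covers it. The window beside the tRNA gene has its A/T runs near its right end only.

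These sites were found by both replicates about as often as the rest of the set. A summit lay within 200 bp in the list of replicate 1 for 293 of the 294 sites and in that of replicate 2 for 291. Both lists had one for 290 sites (98.6%, 96.6 to 99.5), against 96.2% (95.4 to 96.9) of the other optimal summits. The optimal set was derived from these lists, so much of this match is built in. The replicates placed the summit a median of 35 bp apart at the distal sites between genes. The 4 sites without a match in one of the lists were between CG33795 and CG33687, between CG4004 and Paics, near sca and between CG8635 and ptc.

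A stricter match asked whether each replicate ranked the site among its own strongest 2644 entries. Both did so for 168 sites (57.1%, 51.4 to 62.7), against 53.5% (51.5 to 55.5) of the other summits. Replicate 1 alone did so for 47 sites, replicate 2 alone for 64, and neither for 15. Sites high in both had a median pooled signal of 139, and the 15 ranked high in neither had a median of 85.5 and reached 101. All of the strongest 50 sites were high in both replicates, against 2 of the weakest 50. The order is by pooled signal, made from the same replicates, so much of this split is built in. The signal in replicate 2 differed from that in replicate 1 by a median of 1.18-fold at the strongest 50 and 1.39-fold at the weakest 50 sites, of which 49 had both values. Over 290 sites, Spearman's rho of the replicate signals was 0.49, against 0.43 over the other summits, a description across sites of a set selected on pooled signal. In fold, the replicates thus differed more at single weak sites than at strong ones.

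**Figure D1:**
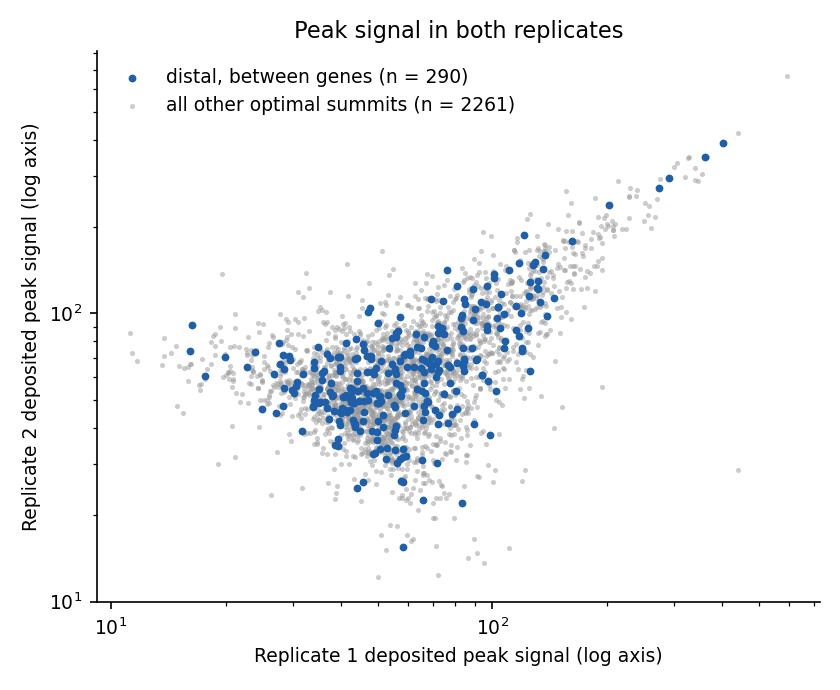
Deposited peak signal of replicate 1 (horizontal, log axis) and replicate 2 (vertical, log axis) for the 290 distal summits between genes that had a summit within 200 bp in both lists (blue) and for 2261 other optimal summits (grey). Strong sites lie along the diagonal, and weak sites scatter widely in both groups.

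The signal is the peak caller's value as deposited. Its scale is unknown here, so it serves to describe and order peaks inside one list. Distal sites between genes had signals from 81.3 to 766 with a median of 111 and quartiles of 92.3 and 148, against a median of 113 and quartiles of 92.9 and 156 for the other summits. Among the strongest 100 peaks of the set were 6 of the 294, against 94 of the 2350 other summits, and 142 (48.3%) were in the stronger part of the set, against 50.2% of the other summits. Of all 4962 entries of the pooled list that meet the positional rule, 5.93% (5.30 to 6.62) were in the optimal set, against 5.81% of distal entries inside genes, 7.87% of entries 501 to 2000 bp from a TSS and 16.4% of entries within 500 bp of one.

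The strongest site lay at 2R 13035323 in a gap of 36783 bp between Su(z)2, a Polycomb group gene, and CG13323. Its signal was 766 in the pooled list, 404 in replicate 1 and 389 in replicate 2, and it ranked 3 in all of them. The nearest non-coding gene was 49328 bp away. No other optimal summit lay within 5000 bp of it.

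The next site lay at 3R 29214439, 5733 bp upstream of eEF1gamma, which encodes a subunit of the factor that recharges the elongation factor eEF1A. Signals were 700 in the pooled list, 362 in replicate 1 and 349 in replicate 2. It was 123 bp from the start of lncRNA:CR31044 and 1146 bp from mir-279. Among the protein-coding genes on either side, neither had an optimal summit within 500 bp of a TSS.

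Further down the list the sites were spread over the arms. The site at X 12752389 had 541 in the pooled list, 292 in replicate 1 and 296 in replicate 2, and lay inside lncRNA:CR44619. The site at 2L 2202430, in a gap of only 5808 bp between COX7AL2 and CG31668, had 537, 273 and 272. The site at 3L 10776593 near CG43245 had 411, 202 and 239. At 2R 22676536, 5771 bp from RYBP, which encodes a ubiquitin-binding partner of Polycomb complexes, the values were 337, 161 and 179. For these sites the replicates stood close together, and each value was far above the medians of 56.2 in replicate 1 and 62.4 in replicate 2.

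The rest of the strongest 15 sites, after merging within 1000 bp, had pooled signals from 252 to 308. They lay between hng3 and CG13898 (308), again between CG4004 and Paics (281), near Reg-2 (269) and upstream of tara (268). Others were near MFS14 inside lncRNA:CR44468 (267), between CG18404 and heca (262), downstream of Tollo, which encodes a Toll family receptor (258), between ppk and elB (255), and between glec and lsn (252). At the hng3 site, replicate 2 had 188 and replicate 1 had 121. At the Reg-2 site the order was the other way, with 89.0 in replicate 2 and 124 in replicate 1.

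The sites were not spread over the territory in proportion to its length. Arm 3L held 117 of the 294 (39.8%, 34.4 to 45.5), against 25% of the territory and 31.0% of the pooled entries that meet the rule. The territory of 3L held 13.7 sites per Mb, against 7.63 on 2R, 7.82 on 2L and 8.06 on 3R. The territory includes stretches without pooled entries, such as 2R from 0 to 4 Mb, which lower these rates. Of the 164 gaps between protein-coding genes that held a site, 49 (29.9%) were on 3L. These held 2.39 sites per gap, against 1.37 on 2R, 1.48 on 2L, 1.70 on 3R and 1.82 on X. The intervals take each site as separate, although sites share gaps. Arm X held 20 sites (6.80%, 4.45 to 10.3), against 15.6% of the territory and 9.35% of the pooled entries, which is 3.76 per Mb. Of all optimal summits, 15.6% were on X. Arm 4 held 0 of 294, which allows a share of up to 1.02%, and 0.700% of the territory. Embryos of both sexes were mixed, so part of the embryos carried a single X, and how far this moves the X share was not tested.

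Bins of 1 Mb with 10 or more sites numbered 8, of which 6 were on 3L, and they held 105 sites (35.7%).

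**Figure D2:**
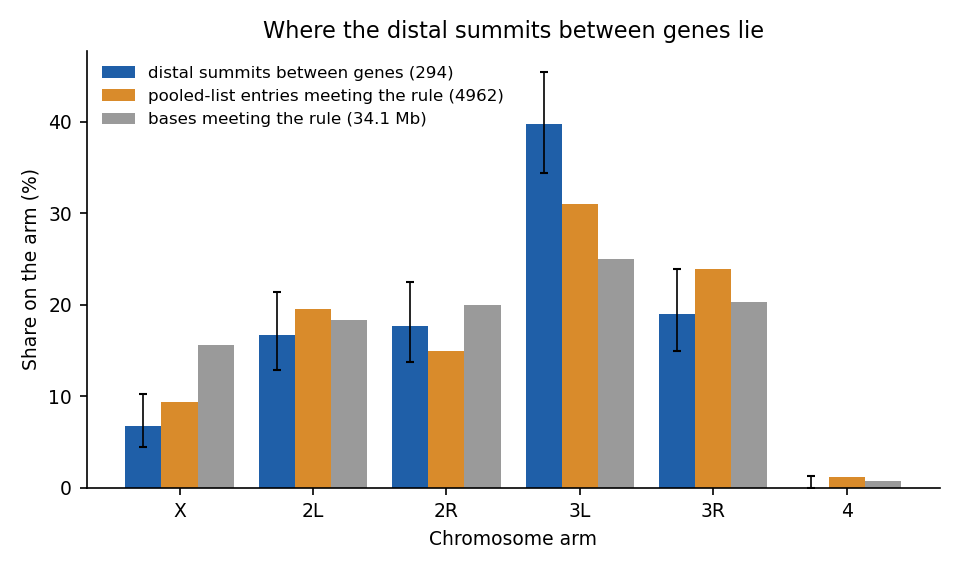
Share on each chromosome arm (vertical, percent) of the 294 distal summits between genes (blue, with 95% Wilson intervals, counting error only), of the 4962 pooled-list entries that meet the rule (orange) and of the 34.1 Mb that meet it (grey). Arm 3L stands at 39.8, 31.0 and 25%, and arm X at 6.80, 9.35 and 15.6%.

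The sites lay in a small share of the gaps, and some gaps held several. Of 2920 gaps between protein-coding genes with territory in them, 164 (5.62%) held a site. A single site was found in 107 gaps, 2 in 25 gaps, and 3 or more in 32 gaps. Those 32 gaps made up 2.98% of the territory and held 137 sites (46.6%), and 17 of them were on 3L. The 10 fullest held 65 sites (22.1%), and 8 of the 10 were on 3L. Since the gaps were ordered by their sites, these shares describe the crowding and test nothing.

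The fullest gap was that between CG18404 and heca on 3R, 23834 bp long, with 9 sites. Their pooled signals had a median of 149 (85.0 to 262), and 6 of the 9 were among the strongest 2644 of both replicates. They formed a run of 6 over 8296 bp on the side of CG18404, led by the site at 30259157 (replicate 1, 118 and replicate 2, 150), and a run of 3 over 4240 bp on the side of heca, led by the site at 30272678 (126 and 128). The last of these 3 was uneven, with 22.8 in replicate 1 and 65.1 in replicate 2.

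The run with the most sites was on X, where 7 lay within 4999 bp between the ends of CG4004 and Paics, which encodes an enzyme of purine synthesis. The gap is 7250 bp long. Pooled signals were 102, 193, 132, 541, 101, 281 and 105 in order along the arm. The first 3 lay inside lncRNA:Vinr and the next 3 inside lncRNA:CR44619. These 7 were 35% of all sites on X.

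On 3L, the gap between hng3 and CG13898 held 7 sites and that between CG13896 and hng3 held 3, so hng3 was flanked on both sides. The first had signals from 85.1 to 308, and the second from 132 to 175. The gap between NijA and CG43245, 75047 bp long, held 7 with signals from 90.6 to 203. The gap between Ids and sty, which encodes an antagonist of receptor tyrosine kinase signalling, held 6 with signals from 97.8 to 191.

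Some crowded gaps on 3L abut each other. hid, a gene that promotes cell death, had 4 sites on the side of CG7320, all within 4445 bp and with signals of 192, 117, 145 and 203, and all 4 were high in both replicates. The next gap, from CG7320 to CheA75a, held 6 sites with a maximum of 174. In the same way CG6163 had 5 sites on one side and 4 on the other, with maxima of 246 and 213. hry, the pair-rule gene hairy, had 5 on the side of Pex7 and 4 on the side of SrpRbeta, with maxima of 193 and 115.

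**Figure D3:**
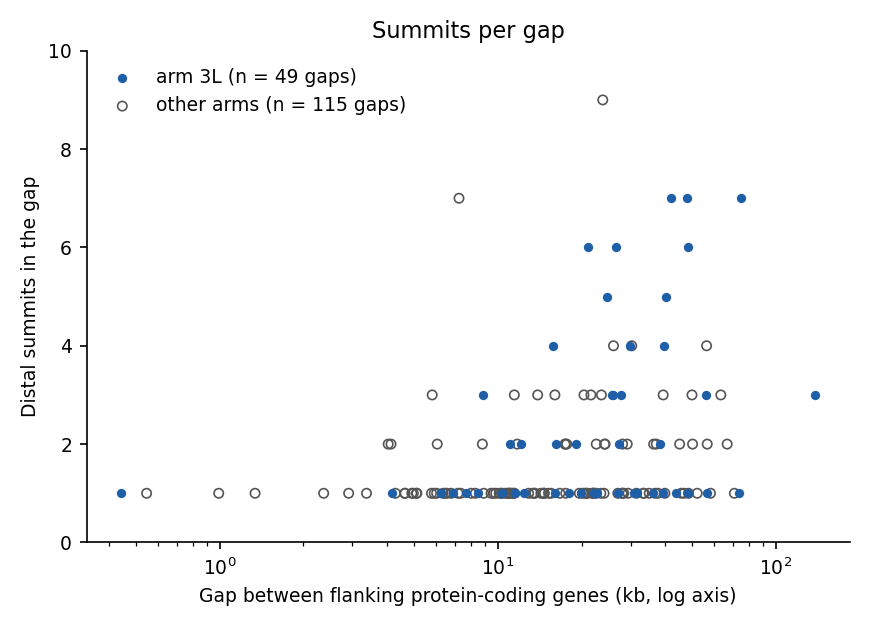
Number of distal summits (vertical) against the length of the gap between the flanking protein-coding genes (horizontal, kb, log axis) for the 164 gaps that hold any, with 49 gaps on 3L in blue and 115 on other arms as open circles. Most of the 164 gaps hold 1 site (107), and 8 of the 10 fullest are on 3L.

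Another optimal summit of any class lay within 5000 bp of 175 sites (59.5%, 53.8 to 65.0), against 50.6% (48.6 to 52.6) of the other summits. Runs of 3 or more sites, each within 5000 bp of the next, numbered 23 and held 82 sites (27.9%). Of these runs, 13 were on 3L. Among them were runs between CG33795 and CG33687 (4 sites, strongest 184), between Alp13 and Fmr1 (4, strongest 150), between CG43389 and ckd (3, strongest 133), between CG4218 and CG3473 (3, strongest 249), between CG13872 and CG42690 (3, strongest 128) and between CG15258 and CG44869 (3, strongest 115). Chromatin had been sheared to fragments of 200 to 800 bp.

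The sites lay nearer to genes than the territory does. Their median distance to the nearest TSS was 6144 bp, with a range of 2047 to 55685 bp, against a median of 11143 bp over all bases of the territory and 7131 bp over the pooled entries that meet the rule. Within 5000 bp of a TSS lay 112 sites (38.1%, 32.7 to 43.8), against 23.9% of the territory. The pooled entries that meet the rule had 34.7% there, which is inside the interval of the sites. Beyond 20000 bp lay 27 sites (9.18%, 6.39 to 13.0), against 32.4% of the territory and 12.1% of the pooled entries. The median signal was 112 up to 5000 bp, 120 from there to 10000 bp, 107 up to 20000 bp and 97.8 beyond.

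At the cut of 2000 bp, the nearest sites kept were 2047 bp from CG4218 (signal 88.4), 2082 bp from CG10939 (121) and 2088 bp from fng (92.3). The nearest left out were 1981 bp from CG10357 (174), 1956 bp from CG32645 (118) and 1953 bp from CG5853 (124).

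The 3 sites farthest from any TSS were at 3L 10328889, 3L 10363809 and 3R 10476209. The first was 55685 bp from Or67d, an odorant receptor gene, in a gap of 138193 bp, with 145 in the pooled list, 57.4 in replicate 1 and 97.1 in replicate 2. The next was 49009 bp from CG12362 in the same gap and 1419 bp from mir-276a, with 91.3, 16.3 and 91.4. It rested mainly on replicate 2, where it ranked 510, against 17025 in replicate 1. The last was 41420 bp from Cyp12e1 in the gap before hth, a homeobox gene, with 89.4, 45.9 and 42.4.

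The orientation of the flanking genes followed the territory. Tandem gaps held 153 sites (52.0%, 46.3 to 57.7), against 52.1% of the territory. Divergent gaps held 71 (24.1%, 19.6 to 29.4), against 22.8%, and convergent gaps held 70 (23.8%, 19.3 to 29.0), against 25.1%. The nearest edge was a gene's start for 134 sites (45.6%).

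The flanking genes had promoter peaks of their own more often than other genes beside the territory. Of 305 protein-coding genes that flank a gap with a site, 52 (17.0%, 13.2 to 21.7) had an optimal summit within 500 bp of a TSS, against 342 of 4244 (8.06%, 7.28 to 8.92) of the genes that flank a gap with none. Over all 13945 protein-coding genes the share was 9.90%. At least 1 of the flanking genes had such a summit for 109 sites (37.1%), and both had for 10 sites.

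The label of these sites holds for protein-coding genes only, since many lay at non-coding genes. Long non-coding RNA (lncRNA) genes held 45 sites (15.3%, 11.6 to 19.9), against 6.35% of the territory and 10.7% of the pooled entries that meet the rule. Within 2000 bp of an lncRNA gene lay 106 sites (36.1%, 30.8 to 41.7), against 14.4% of the territory. A start of a non-coding transcript lay within 500 bp of 28 sites (9.52%, 6.67 to 13.4), against 2.86%. The 45 sites were spread over 30 lncRNA genes, and their median signal of 109 stood beside 111 at the sites outside lncRNA genes.

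Among the lncRNA genes with more than 1 site were lncRNA:CR44619, lncRNA:Vinr, lncRNA:CR45054 beside Fmr1 and lncRNA:CR43626, with 3 each. lncRNA:Hsromega, the heat-shock inducible nuclear RNA of the omega speckles, had 2 sites. The first, 2208 bp from SIFaR, had 139 in the pooled list, 84.4 in replicate 1 and 68.5 in replicate 2. The other had 125, 89.7 and 41.2.

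Micro RNA genes were near some of the sites. miRNAs are short RNAs, cut from longer transcripts, that repress target messenger RNAs, and their primary transcripts can start far upstream. Within 2000 bp of a miRNA gene lay 12 sites (4.08%, 2.35 to 7.00), against 0.494% of the territory. Inside a miRNA gene lay 0 of 294. The 12 sites lay in 8 gaps, and these genes were singled out after their values were seen.

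At bantam, which promotes growth and blocks cell death in flies, a site lay 1381 bp away at 3L 640827, inside lncRNA:CR43334. It had 157 in the pooled list, 69.6 in replicate 1 and 78.2 in replicate 2. mir-14, a regulator of fat metabolism and of cell death, had 3 sites at 279, 1047 and 1885 bp, with pooled signals of 125, 187 and 116. mir-282 also had 3, at 138, 850 and 899 bp, with 101, 133 and 101. mir-8, which acts on growth through insulin signalling in the fat body, had a site at 905 bp with 141 in the pooled list, 47.7 in replicate 1 and 104 in replicate 2. The others were mir-279 (described above), mir-317 (98.3), mir-276a (91.3), and mir-275 with mir-305 beside it (83.9).

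tRNA genes were near 2 sites. This share within 500 bp (0.680%, 0.187 to 2.45) stood beside 0.213% of the territory and 0.584% of the pooled entries that meet the rule. One was 225 bp from tRNA:Ala-TGC-2-1 near CG10939 with signals of 121 in the pooled list, 59.8 in replicate 1 and 65.3 in replicate 2, and the other 107 bp from tRNA:Tyr-GTA-1-4 with 87.5, 29.8 and 54.4.

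Annotated transposable elements covered 11.5% of the territory and held 0 of the 294 sites, which allows a share of up to 1.02%, and 0.846% of the pooled entries that meet the rule. How reads that map to several places were treated is unknown here, and the part of mapping in this count was not tested.

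The flanking genes were then read by list. The lists do not hold every gene of their kind, so the counts below are of listed genes only. Among all protein-coding genes, 305 of 13945 (2.19%) flanked a gap with a site, or 6.70% of the 4549 genes that border any territory. In the segment polarity, Wnt and Hedgehog list 5 of 17 did, of 13 that border territory. In the list of mesoderm, heart and muscle regulators it was 5 of 17, of 15. The lists are small, and the part of gap length in these counts was not tested.

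Wnt genes lay in a row on 2L with sites between them. The gap from Wnt6 to Wnt10, both Wnt ligand genes, held a site with 215 in the pooled list, 76.1 in replicate 1 and 141 in replicate 2. The gap from wg, the ligand of segment polarity, to Wnt6 held 2, with pooled signals of 125 and 107. ptc, the Hedgehog receptor gene, had 2 sites in the gap from CG8635, the stronger with 137. fz, a Wnt receptor gene, had 1 with 81.4.

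Among mesoderm and heart regulators, the T-box genes H15 and mid had 2 sites in the gap between them, with 105 and 94.8, and mid had 2 more on its other side, with 104 and 90.3. The T-box genes Doc1 and Doc2 shared a site of 94.6, and zfh1 had one of 91.3. Of the gap and pair-rule genes 3 of 17 flanked a site, namely hry, opa with 86.1 and odd with 84.5. Of the listed homeobox genes it was 4 of 31, namely ems with 121, Dr with a maximum of 101, hth with 89.4 and Dll with 82.4. Homeobox genes outside the list flanked sites too, among them pdm3 (131), exex (maximum 120) and Awh (87.6).

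Ligand and receptor genes of signalling pathways flanked sites in 5 of 35 cases. Ser, a Notch ligand gene, had a site of 131. upd1 and upd3, ligand genes of the JAK/STAT pathway, shared one of 113, and dpp, a bone morphogenetic protein ligand gene, had one of 102. vn, a ligand gene of the EGF receptor, had 3 from 81.3 to 89.8. Of the adhesion and guidance list 3 of 34 did, namely robo2 (162), Fas3 (154) and shg, the E-cadherin gene, with 3 sites from 89.5 to 141.

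Listed Polycomb group genes flanked sites in 2 of 23 cases, and they are the neighbours Psc and Su(z)2, paralogs in Polycomb repressive complex 1. RYBP, the partner of Polycomb complexes named above, flanked a gap with 2 sites (337 and 153) and was not among the listed genes that did. Psc had a promoter summit of its own, and its strongest site had 215. In the list named for the Trithorax group, 3 of 25 genes flanked sites, namely corto, psq (101) and Bap111 (85.0). That list is broader than its name, since corto belongs to the Enhancers of Trithorax and Polycomb. corto, which encodes the tagged protein, had 5 sites in its 2 gaps. The strongest, 25669 bp from its TSS on the side of plh, had 166 in the pooled list, 90.9 in replicate 1 and 69.5 in replicate 2. The other 4 had pooled signals from 82.1 to 99.98, and corto had a promoter summit of its own.

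The remaining lists gave few. Listed odorant, gustatory and ionotropic receptor genes flanked sites in 5 of 105 cases, namely Gr93d, Or45b, Or67d, Or65a and Or85e. Ir68a, an ionotropic receptor gene outside the list, flanked a site of 204. GATA and zinc finger regulators had 2 of 15 (lola and Eip93F), ecdysone response genes 2 of 27 (Eip75B and ImpE1), Notch targets 2 of 12, and actin and tubulin genes 2 of 14 (Act5C with a maximum of 187, and alphaTub84B). Translation factors had 1 of 20 (eEF1gamma) and glycolytic genes 1 of 12 (Hex-A). Of the 8 Hox genes, 19 neural regulators, 19 heat shock genes, 34 neuropeptide genes and 22 immune genes that were listed, 0 flanked a site. Of these, 8 Hox genes, 12 neural regulators, 8 heat shock genes, 11 neuropeptide genes and 1 immune gene border territory. Nothing is read from a 0 over so few genes. Genes outside the lists flanked sites, among them SIFaR, a neuropeptide receptor gene (maximum 139), and BomT1, an immune peptide gene (144).

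The DNA under the summits was rich in A and T with GC-rich shoulders. Within 100 bp of the summit, GC content averaged 36.7% ± 5.84 (SD, n = 294), against 41.8% in windows 1000 bp to either side and 41.0% over 168762 windows that tile the territory. The summit window was lower than its own flanks at 214 sites (72.8%). The other optimal summits averaged 36.7% ± 6.80 (SD, n = 2350), so the dip is shared by the whole set. A run of 10 or more A or T was present at 220 sites (74.8%), against 52.6% of flank windows, 53.5% of territory windows and 75.8% of the other optimal summits.

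The shoulders were highest at the sites between genes. In windows of 51 bp, GC content at the distal sites between genes was 32.5% at the summit, 47.0% at 250 bp on one side and 47.5% at 250 bp on the other. It then fell to 43.0 and 42.2% at 500 bp. Summits inside genes reached 45.0 and 44.7% at 250 bp, and summits within 500 bp of a TSS had 41.8 and 42.7%. The standard errors of these means were 0.613 and 0.645 at the sites between genes and 0.329 and 0.338 at promoters, over sites, which are not replicates of a condition.

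**Figure D4:**
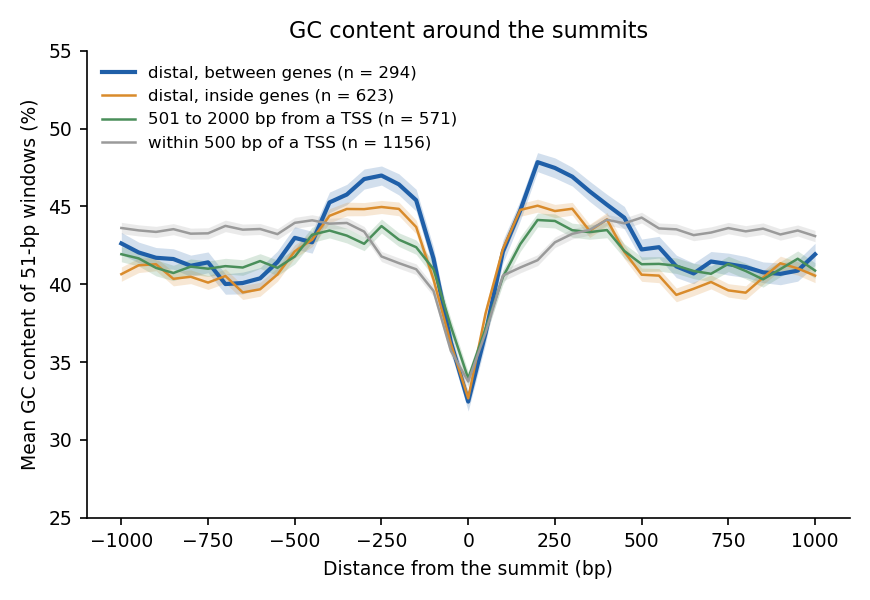
Mean GC content of 51-bp windows (vertical, percent) against distance from the summit (horizontal, bp) for distal summits between genes (blue, n = 294), distal summits inside genes (orange), summits 501 to 2000 bp from a TSS (green) and summits within 500 bp of one (grey), with bands of 1 standard error over summits. All classes dip to 32.5 to 33.9% at the summit, and the shoulders at 250 bp are highest at the sites between genes.

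Of 21 motifs looked for on both strands in these windows, most were no more common at the sites than beside them. GAGAG, the motif of GAGA factor, was in 66 windows (22.4%, 18.1 to 27.6), against 23.8% of flank windows, 21.1% of territory windows and 31.4% of the other optimal summits. GCCAT, the core of the Polycomb recruiter Pho, was in 25.2%, against 34.9% of flank and 35.3% of territory windows, and 25.2% of the other optimal summits. TATAAA was in 33.3% (28.2 to 38.9), against 21.4% of flank windows, 23% of territory windows and 35.6% of the other optimal summits. The windows also held less GC than their flanks, and the part of base composition in these shares was not tested.

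Rarer motifs were in few windows of any kind. TATCGATA, the DNA replication-related element of many housekeeping promoters, was in 0 of 294 windows, which allows a share of up to 1.02%, against 0.427% of territory windows and 2.72% of the other optimal summits. The dCTCF motif AGGNGGCGC was in 0 windows, against 0.305% of territory windows, and core promoter Motif 1, GGTCACACT, in 0, against 0.0978%. The tRNA B box GTTCGANNC was in 2 windows (0.680%), against 1.33% of territory windows. CAGGTAG, the Zelda motif, was in 2 (0.680%), against 0.860% of territory windows. A motif match is a string of letters and not a binding site.

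All words of 7 letters were then counted in the same windows, with a word and its reverse complement as 1. Of 412 words present at 20 or more sites, those with the highest ratio to 1176 flank windows, 1000 and 1500 bp to either side, were taken. First among them was CACTGAG, at 27 sites (9.18%, 6.39 to 13.0), against 1.53% of flank windows and 1.81% of territory windows. The word was chosen on these windows, so its count there is no test. In summits not used for the choice, it was in 7.38% (5.58 to 9.71) of the distal summits inside genes, in 4.47% (3.70 to 5.38) of all other optimal summits and in 4.28% (3.74 to 4.90) of the weaker entries between genes that are not in the optimal set. Of the 10 leading words, 6 held the letters CACTG or their reverse complement.

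The word had a direction. It was read on the strand that pointed at these summits more often, so the count at these sites is no test of facing. Within 150 bp of a distal summit between genes, 45 copies pointed at the summit with their 3′ end and 6 pointed away (88.2%, 76.6 to 94.5). Between 151 and 300 bp, 9 pointed at the summit and 7 away. Copies that pointed at the summit lay a median of 86 bp from it. They occurred at 37 sites (12.6%, 9.27 to 16.9), and at 8 sites a copy pointed inward from both sides.

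Summits that played no part in the choice of the word were faced by it too. Inside genes, 68 copies pointed at the summit and 6 away (91.9%, 83.4 to 96.2). At 501 to 2000 bp from a TSS it was 24 and 4, and within 500 bp of one it was 43 and 14. Among the weaker entries between genes it was 214 and 98 (68.6%, 63.2 to 73.5). Inside genes, 9.31% (7.27 to 11.8) of the summits had a copy that points inward. The share was 3.68% (2.42 to 5.56) at 501 to 2000 bp and 3.63% (2.70 to 4.87) within 500 bp of a TSS. The 12.6% (9.27 to 16.9) at the distal sites between genes is not comparable, since the word and its strand were chosen there.

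**Figure D5:**
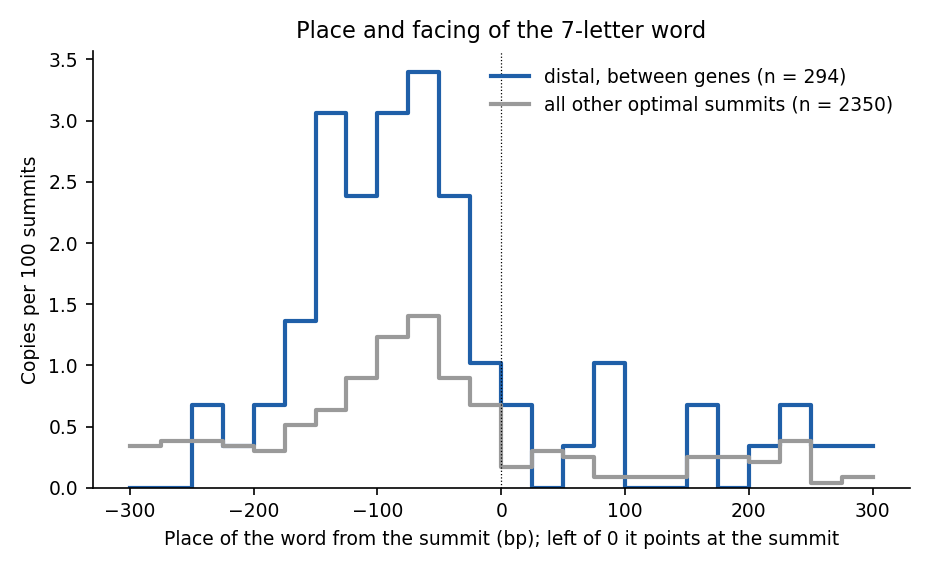
Copies of CACTGAG per 100 summits (vertical) in bins of 25 bp by their place from the summit (horizontal, bp), with copies that point at the summit left of 0 and copies that point away right of 0, for distal summits between genes (blue, n = 294) and all other optimal summits (grey, n = 2350). Copies gather left of 0 within 150 bp in both groups, at 45 against 6 right of 0 in the blue group and 135 against 24 in the grey group.

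The letters around the inward copies at the distal sites recurred. Of 45 copies, 25 had G directly before the word and 28 had T before that. After the word, 29 had A, 22 had G, 34 had A, 36 had A and 35 had A in the next 5 places. The 8 strongest sites with 1 inward copy on the arms printed here are shown to let these letters be read, on the strand that points at the summit, with the word in capitals. The summit lies beyond the right end of each line.
Nearest to Reg-2, chr3L:621619-621659, minus strand: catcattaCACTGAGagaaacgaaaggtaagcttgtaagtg
Between glec and lsn, chr3R:21859604-21859644, plus strand: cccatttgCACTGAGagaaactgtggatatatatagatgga
Nearest to CG9300, chr3L:19560879-19560919, minus strand: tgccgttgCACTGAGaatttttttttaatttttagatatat
Between CG6168 and CG6163, chr3L:11353126-11353166, plus strand: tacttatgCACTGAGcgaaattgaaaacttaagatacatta
Nearest to CG42693, chr3R:31698378-31698418, minus strand: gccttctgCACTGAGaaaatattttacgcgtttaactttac
Between Wnt6 and Wnt10, chr2L:7358125-7358165, plus strand: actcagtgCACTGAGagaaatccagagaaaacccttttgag
Between hng3 and CG13898, chr3L:762567-762607, minus strand: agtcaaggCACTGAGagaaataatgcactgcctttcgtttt
Between CG13896 and hng3, chr3L:727991-728031, plus strand: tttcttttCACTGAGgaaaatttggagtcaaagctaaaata
Beyond the capitals, 4 of the 8 lines read on with the letters agaaa.

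Sites with copies on both sides are shown next because the word then brackets the summit. The lines run from one copy to the other on the plus strand, with the word and its reverse complement in capitals.
Between noc and CG33648, chr2L:14502699-14502844, plus strand: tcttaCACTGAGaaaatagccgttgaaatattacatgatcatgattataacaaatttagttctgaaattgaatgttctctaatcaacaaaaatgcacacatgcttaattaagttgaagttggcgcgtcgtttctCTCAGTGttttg
Between Or67d and CG12362, chr3L:10328777-10328936, plus strand: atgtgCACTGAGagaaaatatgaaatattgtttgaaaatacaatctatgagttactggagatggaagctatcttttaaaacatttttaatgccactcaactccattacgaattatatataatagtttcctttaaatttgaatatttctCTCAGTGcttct
Between dpp and Slh, chr2L:2486946-2487158, plus strand: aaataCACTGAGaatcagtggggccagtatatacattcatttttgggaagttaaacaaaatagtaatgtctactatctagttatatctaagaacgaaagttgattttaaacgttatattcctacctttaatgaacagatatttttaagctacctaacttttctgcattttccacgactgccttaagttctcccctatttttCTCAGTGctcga
These sites had pooled signals of 196, 145 and 102. The stretch between the copies is AT-rich, as at the other summits.

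Other leading words faced the summit too, and some did not. TACACTG pointed at it in 34 copies and away in 4 at the distal sites between genes, against 140 and 39 at all other optimal summits. TGCACTG did so in 56 and 18, against 203 and 83. CACAGTG did so in 30 and 9, against 212 and 84, but it holds CACTG on its other strand, so there CACTG pointed away. The AT-rich words ATATTAC (16 and 14) and ATCTTTA (17 and 17) showed no facing. The 5 letters CACTG alone pointed at the summit in 171 copies and away in 129 (57.0%, 51.3 to 62.5), against 1027 and 996 (50.8%) at the other summits. For each word the strand that faced more often at the distal sites was taken. Fewer copies toward the summit than away could therefore not occur at those sites.

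Most copies of the word lay far from any peak, and sites with an inward copy were about as strong as those without. Of 12761 copies on the arms, 210 (1.65%) lay within 150 bp of an optimal summit, which covers 0.588% of the bases, and 10.3% lay as near to a summit of the pooled list, which covers 6.53%. The 37 sites with an inward copy had a median signal of 113, against 111 at the 257 without. Soft-masked repeats held 15.3% of the copies and 20.1% of the arms. Sites with an inward copy included those between upd3 and upd1, near Dr, near odd, in the gap between corto and CG43131, and between vn and CG5568.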

How the data were processed

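Corto-GFP ChIP-seq libraries were 2 biological replicates of 1 group. The authors deposited narrowPeak lists, with 30000 entries for each replicate and for the pooled reads and 2644 in the optimal set. They were made from alignments with a control, per the deposited text notes. The deposited signal is the signal column of these lists. Not given in the sources used here are the aligner, the peak caller, the IDR cutoff and any filtering of reads. Depth is unknown, and the control was not analysed here. Lists on dm3 were not used. One gap that the naming rule covers is not reported here.

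Summits were taken from the deposited offsets (1-based, dm6) and placed against Ensembl release 115 (BDGP6.54). The territory was counted base by base over 6 arms. It includes bases to which reads may not map, so pooled entries that meet the same rule were set beside it. Shares carry 95% Wilson intervals, and a count of 0 the share that 3 counts would make, both for counting error only. No test over sites was made. Calculations used Python 3.11.15, numpy 2.4.6, pandas 2.3.3 and scipy 1.17.1, with figures in matplotlib 3.10.9, and were tested on simulated data.

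The members, the 20 gene lists, the 21 motifs and the rules were chosen with earlier results of these data known. Named sites were the 15 strongest after merging within 1000 bp, the 5 strongest in each class (a tRNA gene within 500 bp, inside an lncRNA gene, no gene within 2000 bp), runs of 3 or more within 5000 bp, the 3 farthest from a TSS and, per gene list, up to 5 flanking genes. Groups within crowded gaps, miRNA genes and 7-letter words were chosen after values were seen. Alternatives were each replicate alone, the stronger part of the set, other distances, merged summits and other windows.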

Additional observations from a re-analysis of the deposited data

How the results depend on the processing

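Of 70 values recomputed with other settings for the 10 results, 49 lay within the 95% interval of the value reported. From each replicate's own strongest 2644 entries the share of summits between genes was 9.83 to 11.1%, and the median signal was 62.4 to 63.2 on those lists' own scale. In the stronger part of the set the median signal was 151, 100% had a summit in both replicate lists, 48.6% had a neighbour within 5000 bp and 28.2% held GAGAG. With a distance over 1000 bp, summits between genes were 13.9% of the set and their median distance to a TSS 4948 bp. Over 5000 bp these were 6.88% and 11055 bp, with 0% near a tRNA gene and 11.5% inside a non-coding gene. Replicate matches within 100 bp, within 500 bp and among the strongest entries only were 88.8, 99.7 and 57.1%. Non-coding genes within 500 bp gave 22.8%. Neighbours within 2000 and 10000 bp gave 36.4 and 71.8%. GAGAG within 50 and 150 bp gave 9.18 and 34.7%. The settings on signal, distance and window set the medians and shares they act on. The cause of the other shifts was not tested.

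Of 18 values added after seeing the data for the shares on 3L, near miRNA genes and with an inward word, 16 lay within the interval. The exceptions were 47.3% on 3L over 5000 bp and 8.84% with the inward word from replicate 2 alone.

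No paired analysis was possible because there is 1 group. The match in both replicate lists has no value from a replicate alone. Depth is unknown, so a single peak's signal has no interval.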
